A study of Mus musculus with 9 samples.

Results

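A set of 8 genes that endothelium uses to hold or recruit leukocytes were followed in sorted ventricular endothelium of the mouse embryo. They were picked by name: Icam1, Icam2, Vcam1, Alcam, Selp, Sele, Cd34 and Ackr1. All 8 were found among the 41214 Ensembl genes of the deposited table, and 7 of them passed the filter on low counts. Ackr1 did not. The 9 libraries were 3 of the endocardial, 3 of the arterial-enriched and 3 of the venous-enriched population. Hearts were taken at embryonic day 17.5, and the ventricles were used without atria and aortic region. Every embryo carried Nes-Gfp(Tg/0), a green reporter under the Nestin promoter, with Nes-CreER(Tg/0), a tamoxifen-dependent recombinase under the same promoter, and the reporter allele R26 (tom/+). Tamoxifen, 0.1 ug, was given at day 15.5, so that Tomato marks cells with recombinase activity from then on. All 3 gates took viable cells negative for Ter119 and CD45 and positive for CD31 and GFP. The arterial gate, which holds capillaries too, added low Emcn and Tomato, and the venous gate, meant for vessels under the epicardium, added low Emcn, no Tomato and low GFP. The endocardial gate as written adds no condition on Emcn or Tomato.

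Leukocytes leave the blood in steps. Selectins on the endothelial surface bind glycans on passing cells and let them roll, chemokines held at the surface activate their integrins, and members of the immunoglobulin superfamily such as ICAM-1 and VCAM-1 then bind those integrins and arrest the cell. In adult vessels most of these molecules are induced by cytokines through NF-kappaB, above all in postcapillary venules, while ICAM-2 and CD34 are present on resting endothelium. Some also serve in development, where VCAM-1 on the myocardium binds integrin alpha 4 on the epicardium.

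Libraries held 12750553 to 19474419 counts. Levels are CPM, the counts scaled to a common library size after TMM normalization, and differences are log2 fold changes with a standard error (SE) from edgeR's quasi-likelihood test, and a gene was called where the p, adjusted by Benjamini-Hochberg over every gene tested, was under 0.05. Values with ± are means with the SD over 3 libraries. Endocardial replicate 1 stood apart from its group by its number of genes with a count, 21101 against 17337 and 17130 in replicates 2 and 3. The labels do not say whether replicates were separate litters or pools, so a p-value weighs differences against library-to-library spread that may be technical. In sorted bulk RNA, fewer cells of a type and less RNA per cell cannot be told apart. Npr3, Gja5 and Aplnr were each highest in the population they mark. The arterial and venous marker lists were mixed in the endocardial comparisons, and the endocardial list was not. Of 10 endocardial markers, 10 were called higher in endocardial than in arterial libraries, and 7 than in venous ones. Of 10 arterial markers, 8 were lower and 1 higher in endocardial than in arterial libraries. Of 7 venous markers, 2 were lower and 4 higher in endocardial than in venous libraries. The higher ones include Vwf, which is also on the endocardial list. In arterial against venous libraries 8 arterial markers were higher and none lower, and 4 venous markers were lower and none higher. Over all genes, 11.7% were called in endocardial against arterial, 10.2% in endocardial against venous and 1.07% in arterial against venous libraries. Npr3, the natriuretic peptide clearance receptor of endocardium, averaged 2320 CPM in endocardial, 25.7 in arterial and 49.0 in venous libraries. The arterial connexin gene Gja5 averaged 4.38, 81.4 and 4.40 CPM in the same order, and Aplnr, the apelin receptor gene of coronary veins, 43.3, 155 and 384 CPM.

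Members fell into a set that was higher in endocardial than in arterial libraries (Vcam1, Icam1, Alcam and, resting on 1 library, Selp), a pair that was lower in endocardial than in either coronary population (Icam2 and Cd34) and Sele, which was called in no comparison. Between endocardial and arterial libraries 4 of the 7 tested members were higher and 2 lower in endocardium, counting Selp, which passed the count filter in no arterial library, while 11.7% of all 17103 genes tested were called, 5.75% higher and 5.92% lower. Between endocardial and venous libraries 2 were higher and 2 lower, and 10.2% of all genes were called, 4.44% higher and 5.81% lower. Leaving out 1 library gave 1 to 4 members called here, with 1 without venous replicate 2, and 2 without endocardial replicate 2 or venous replicate 3. Between arterial and venous libraries 1 member was lower and none higher, and 1.07% of all genes were called, 0.76% of all genes as lower. The median log2 fold change of the tested members was 1.05, 0.67 and -0.39 in these comparisons, against -0.01, 0.10 and 0.03 over all genes. Both endocardial comparisons share the endocardial libraries, and each coronary population enters a pair of comparisons. Libraries did not overlap for 6, 5 and 3 members, against 25.6%, 28.2% and 17.3% of all genes tested.

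**Figure D1:**
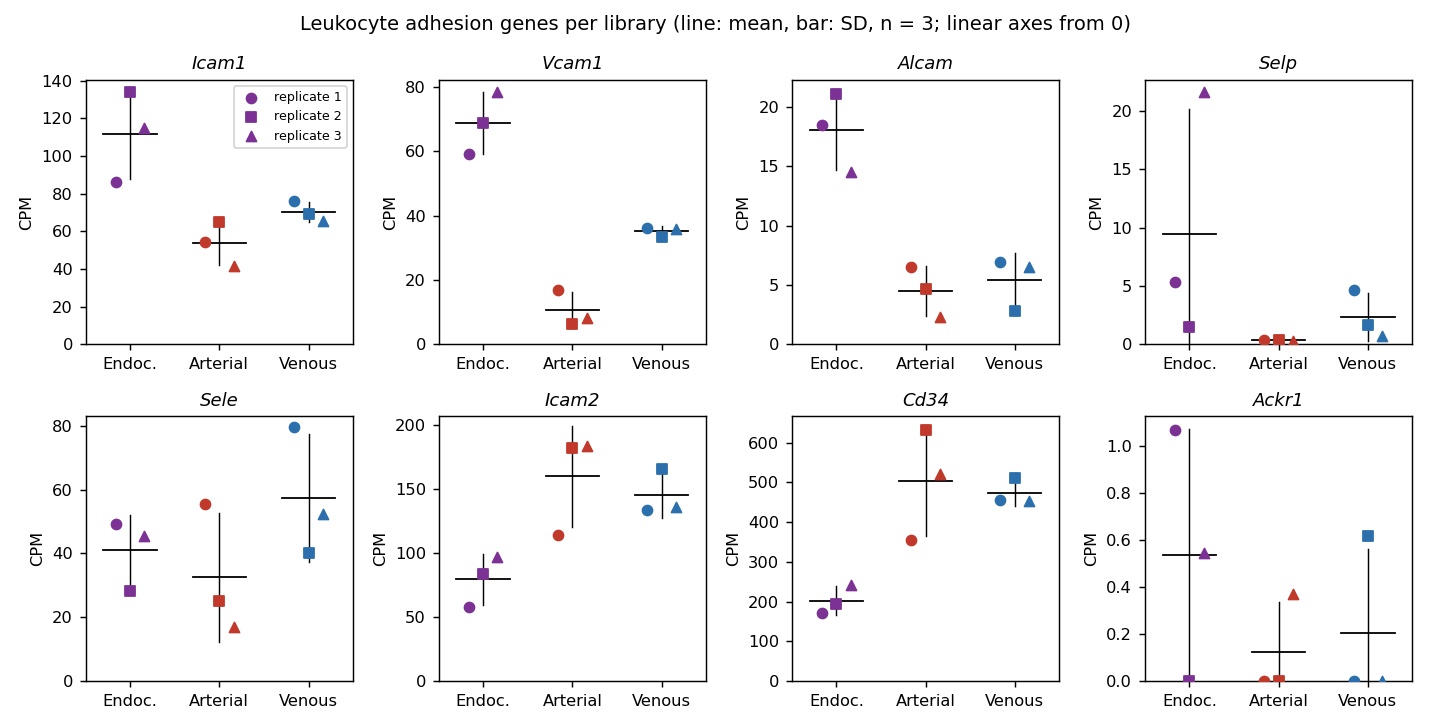
Level of each gene in every library, in CPM on a linear axis from 0, with the mean (horizontal line) and SD (vertical line) of 3 libraries per population and a symbol per replicate number. All endocardial libraries lie above all arterial ones for Icam1, Vcam1, Alcam and Selp and below them for Icam2 and Cd34, and Ackr1 stays at or below 1.07 CPM.

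Vcam1 (ENSMUSG00000027962; GRCm38, chromosome 3, 116109949 to 116129688, minus strand) encodes the counter-receptor of integrin alpha 4 beta 1. It had 59.1, 68.9 and 78.6 CPM in the endocardial, 17.0, 6.39 and 8.31 CPM in the arterial and 36.2, 33.3 and 35.9 CPM in the venous libraries. The 3 populations did not overlap, with venous libraries in between, and it was the only member called between all 3 pairs. Endocardial libraries were 6.52-fold above arterial ones (log2 2.71 ± 0.32 SE, adjusted p = 1.3e-05). Arterial libraries were 3.33-fold below venous ones (log2 -1.73 ± 0.31 SE, adjusted p = 0.00714). The difference between endocardial and venous libraries was smaller, 1.96-fold (log2 0.97 ± 0.30 SE, adjusted p = 0.0472). That call ended without endocardial replicate 2 (adjusted p = 0.105) or 3 (0.152) or without venous replicate 1 (0.113), 2 (0.125) or 3 (0.137). All 3 batches gave the same direction in each of these comparisons.

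Fibroblast markers moved with Vcam1 in both comparisons with arterial libraries. Of the 11 tested, 7 were higher and none lower in endocardial than in arterial libraries, where 5.75% of all genes were called higher. In arterial against venous libraries 6 were lower and none higher, where 0.76% of all genes were called lower. Between endocardial and venous libraries 3 were higher and 3 lower. All 11 markers of the list had counts in endocardial and venous libraries and 10 in arterial ones, where Dpep1 was at 0. Their summed level was 1620 to 1960 CPM in endocardial, 103 to 119 CPM in arterial and 1420 to 1650 CPM in venous libraries. The collagen gene Col1a1 was at 21.2 to 37.1, 4.04 to 8.84 and 126 to 179 CPM in these populations, and the receptor gene Pdgfra at 103 to 123, 2.58 to 3.46 and 25.7 to 39.3 CPM. Of 12 cardiomyocyte markers, 3 were higher and none lower in endocardial than in arterial libraries. In arterial against venous libraries 1 was lower and none higher, and none was called between endocardial and venous libraries. They summed to 529 to 615 CPM in endocardial, 282 to 409 CPM in arterial and 422 to 585 CPM in venous libraries. The part of fibroblasts or cardiomyocytes in the Vcam1 levels was not tested.

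Icam1 (ENSMUSG00000037405; chromosome 9, 21015985 to 21028817, plus strand) encodes the main endothelial ligand of the integrins LFA-1 and Mac-1. It had 86.2, 134 and 115 CPM in the endocardial, 54.5, 65.0 and 41.7 CPM in the arterial and 76.1, 69.2 and 65.6 CPM in the venous libraries. Arterial and venous libraries touched without overlapping, and every endocardial library was above both. Endocardial libraries were 2.08-fold above arterial ones (log2 1.05 ± 0.21 SE, adjusted p = 0.00267). Against venous libraries the endocardial level was 1.59-fold, which missed the threshold (log2 0.67 ± 0.21 SE, adjusted p = 0.057). This comparison passed without endocardial replicate 1 (adjusted p = 0.0153), with the replicate block (0.036), with other size factors (0.0404), with the libraries of these 2 populations alone (0.0486) and with DESeq2 (0.021). The arterial to venous difference was not called (log2 -0.39 ± 0.21 SE, adjusted p = 0.688).

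Icam2 (ENSMUSG00000001029; chromosome 11, 106377656 to 106388075, minus strand), which encodes a ligand of LFA-1 found at endothelial junctions, ran the other way. It had 57.4, 83.5 and 96.8 CPM in the endocardial, 114, 182 and 183 CPM in the arterial and 133, 165 and 136 CPM in the venous libraries. All endocardial libraries lay below all coronary ones, while arterial and venous libraries overlapped. The endocardial level was 2.02-fold lower than the arterial one (log2 -1.01 ± 0.23 SE, adjusted p = 0.00564) and 1.82-fold lower than the venous one (log2 -0.87 ± 0.22 SE, adjusted p = 0.0187). The call against venous libraries was lost without endocardial replicate 1 (adjusted p = 0.052) or venous replicate 2 (0.0789). Arterial and venous levels differed by log2 0.14 ± 0.22 SE (adjusted p = 0.948). Scaled to exonic length, Icam1 had 25.6 ± 5.50 and Icam2 41.6 ± 10.5 CPM per kb in endocardium. In arterial libraries the same values were 12.3 ± 2.67 and 83.9 ± 20.9 CPM per kb, and in venous ones 16.1 ± 1.23 and 75.9 ± 9.25 CPM per kb.

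Alcam (ENSMUSG00000022636; chromosome 16, 52248996 to 52454074, minus strand) encodes CD166, a ligand of CD6 on T cells and of itself. Its levels were 18.5, 21.1 and 14.5 CPM in the endocardial, 6.49, 4.67 and 2.28 CPM in the arterial and 6.92, 2.78 and 6.55 CPM in the venous libraries. The endocardial libraries stood apart from the coronary ones, which overlapped. The endocardial level was 4.02-fold the arterial one (log2 2.01 ± 0.49 SE, adjusted p = 0.0106) and 3.32-fold the venous one (log2 1.73 ± 0.48 SE, adjusted p = 0.0288). Against venous libraries the call ended without endocardial replicate 2 (adjusted p = 0.105), venous replicate 2 (0.139) or venous replicate 3 (0.0677). Alcam did not separate arterial from venous libraries (log2 -0.28 ± 0.47 SE, adjusted p = 0.956). Its counts were 31 to 293 per library, so it is measured with more counting error than the ICAM genes.

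**Figure D2:**
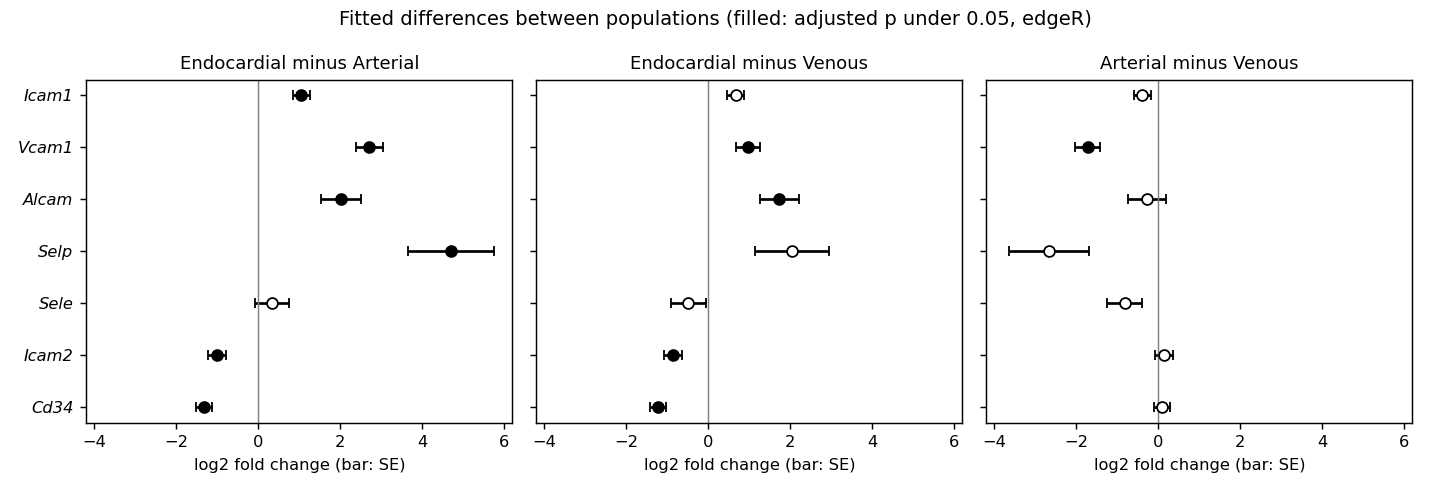
Fitted log2 fold change (x axis) of the 7 tested genes in each comparison, with its SE, where a filled point is called at an adjusted p under 0.05. Vcam1 is called in all 3 panels, Icam2 and Cd34 lie left of 0 in both endocardial comparisons, and Vcam1 is the only filled point between arterial and venous libraries.

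Of the selectins, Selp and Sele both lie on chromosome 1, and their levels took different courses. Selp (ENSMUSG00000026580; 164115264 to 164150026, plus strand) encodes P-selectin, stored in endothelial Weibel-Palade bodies and in platelets. It had 70, 21 and 319 counts in the endocardial libraries (5.35, 1.51 and 21.6 CPM). Arterial libraries held 5, 7 and 4 counts (0.369, 0.403 and 0.294 CPM), and venous libraries 78, 27 and 13 counts (4.61, 1.67 and 0.666 CPM). All arterial libraries were below every other library, and endocardial replicate 3 was above all others. The fitted difference between endocardial and arterial libraries was log2 4.71 ± 1.05 SE (adjusted p = 0.00568), and without endocardial replicate 3 it was log2 3.23 (adjusted p = 0.154). Selp reached the count filter in 6 of 9 libraries and in 0 arterial ones, so that it was tested only because it was higher elsewhere. It was not called between endocardial and venous (log2 2.04 ± 0.91 SE, adjusted p = 0.198) or arterial and venous libraries (log2 -2.67 ± 0.98 SE, adjusted p = 0.394). Exons of Selp share 438 bases with Gm16548 and 186 with Gm16587 on the opposite strand. These genes had at most 18 and 4 counts in a library.

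Platelet and megakaryocyte markers, which could bring Selp, were low in all libraries. The 9 genes summed to 48.8 to 59.3 CPM in endocardial, 32.3 to 39.1 CPM in arterial and 20.2 to 27.2 CPM in venous libraries, with 8, 9 and 8 of them detected. Gp1bb was at 0 in endocardial and Gp6 at 0 in venous libraries. Itgb3, which endothelium also expresses, gave 15.1 to 30.4 CPM of the endocardial sums. Gp1ba was the marker called, at 12.2 ± 4.10 CPM in endocardial, 3.87 ± 0.929 in arterial and 3.09 ± 0.749 in venous libraries (edgeR adjusted p = 0.0409 and 0.0172 for endocardial against arterial and venous libraries). In endocardial replicates 1, 2 and 3 the list summed to 54.2, 59.3 and 48.8 CPM, with Itgb3 at 18.9, 30.4 and 15.1 CPM. Gp1ba was at 9.93, 9.66 and 16.9 CPM and Pf4 at 4.20, 3.53 and 6.85 CPM in the same libraries. Gp9 was at 2.06, 3.17 and 0 CPM. Gp1ba and Pf4 were thus highest in endocardial replicate 3, the library with the most Selp. Gp9, Itgb3, Ppbp and Treml1 were lowest in that library, and Itga2b was highest in endocardial replicate 1. The part of platelets in the Selp levels was not tested.

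Sele (ENSMUSG00000026582; chromosome 1, 164048234 to 164057677, plus strand) encodes E-selectin, which binds fucosylated glycans on leukocytes. It had 49.1, 28.3 and 45.6 CPM in the endocardial, 55.4, 25.2 and 16.8 CPM in the arterial and 79.6, 40.1 and 52.5 CPM in the venous libraries. All 3 populations overlapped, and no pair was called. The log2 differences were 0.34 ± 0.42 SE for endocardial against arterial (adjusted p = 0.791), -0.49 ± 0.42 SE for endocardial against venous (0.584) and -0.82 ± 0.43 SE for arterial against venous libraries (0.673). Within each of the 3 batches the arterial library was below the venous one, with log2 differences of -0.52, -0.67 and -1.63. The arterial to venous comparison passed without arterial replicate 1 (log2 -1.45, adjusted p = 0.0423) and without a filter on low counts (log2 -0.85, adjusted p = 0.0473). Sele was measured well above Selp, at 14.1, 11.2 and 19.7 CPM per kb in endocardial, arterial and venous libraries, where Selp had 2.15, 0.0805 and 0.525 CPM per kb.

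Cd34 (ENSMUSG00000016494; chromosome 1, 194938819 to 194961279, plus strand) encodes a sialomucin of vascular endothelium and blood progenitors. It was the member with the most counts, at 171, 193 and 242 CPM in the endocardial, 356, 633 and 520 CPM in the arterial and 455, 512 and 453 CPM in the venous libraries. All endocardial libraries were below all coronary ones, and arterial libraries spanned the venous range. The endocardial level was 2.49-fold below the arterial one (log2 -1.32 ± 0.20 SE, adjusted p = 0.000201) and 2.34-fold below the venous one (log2 -1.23 ± 0.20 SE, adjusted p = 0.00052). Both calls held under all 14 alternatives. Arterial and venous libraries differed by log2 0.09 ± 0.20 SE (adjusted p = 0.971). Exons of Cd34 share 148 bases with Gm16897 on the opposite strand, a gene with at most 324 counts in a library. Of 10 pan-endothelial markers, 5 were lower and 1 higher in endocardial than in arterial libraries, and 4 were lower and 1 higher than in venous ones. Over all genes tested, 5.92% and 5.81% were called lower in these comparisons, and 5.75% and 4.44% higher. The higher one was Tek, the angiopoietin receptor gene, at 948 ± 32.2 CPM in endocardial, 390 ± 71.5 in arterial and 536 ± 33.4 in venous libraries. The 10 genes, all detected, summed to 3490 to 4610 CPM in endocardial, 5350 to 7390 CPM in arterial and 5130 to 6640 CPM in venous libraries. Pecam1, whose product CD31 all 3 gates used, is in these sums and among the 5 lower against arterial libraries. It is not read as a result. The part of these differences in the levels of Cd34 and Icam2 was not tested.

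Ackr1 (ENSMUSG00000037872; chromosome 1, 173331886 to 173333750, minus strand) encodes the atypical chemokine receptor DARC, a marker of venular endothelium in the adult and a receptor on erythroid cells. It had 14, 0 and 8 counts in the endocardial, 0, 0 and 5 counts in the arterial and 0, 10 and 0 counts in the venous libraries. No population had counts in all of its libraries, and no difference was detectable at this depth. A count of 0 allows up to 3 counts, which is 0.154 to 0.229 CPM in these libraries, by counting error only. Exons of Ackr1 share 361 bases with Cadm3 on the same strand, so reads there could belong to either gene. The erythroid list summed to 74.1 to 245 CPM in endocardial, 549 to 1220 CPM in arterial and 229 to 387 CPM in venous libraries. The part of erythroid cells in the Ackr1 counts was not tested.

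The start regions of 3 cytokine-inducible members and of Cd34 are shown because these genes differ in how they are regulated in adult endothelium. They come from RefSeq on GRCm38.p6 and run from 250 bases before to 50 bases after the start, 5′ to 3′ on the gene's strand. They lie at chr9:21015690-21015989 (Icam1, plus strand), chr1:164047984-164048283 (Sele, plus strand), chr1:164115014-164115313 (Selp, plus strand) and chr1:194938571-194938870 (Cd34, plus strand). RefSeq starts for 6 members were matched by symbol. Capitals mark GGNNNTTCC on either strand, a pattern that many NF-kappaB sites contain and whose last 4 letters are also the core of ETS factor sites read on the other strand.
Icam1: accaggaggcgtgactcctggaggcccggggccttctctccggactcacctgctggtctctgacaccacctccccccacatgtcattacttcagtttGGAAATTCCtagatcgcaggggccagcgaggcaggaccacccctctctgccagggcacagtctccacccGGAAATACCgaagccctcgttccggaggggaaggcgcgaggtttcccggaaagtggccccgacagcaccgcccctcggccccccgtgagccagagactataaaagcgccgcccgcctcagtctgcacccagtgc
Sele: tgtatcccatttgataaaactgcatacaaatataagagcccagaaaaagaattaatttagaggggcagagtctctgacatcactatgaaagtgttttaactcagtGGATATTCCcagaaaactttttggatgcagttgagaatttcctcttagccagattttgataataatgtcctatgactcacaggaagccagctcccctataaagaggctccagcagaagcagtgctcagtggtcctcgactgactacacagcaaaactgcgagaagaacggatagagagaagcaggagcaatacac
Selp: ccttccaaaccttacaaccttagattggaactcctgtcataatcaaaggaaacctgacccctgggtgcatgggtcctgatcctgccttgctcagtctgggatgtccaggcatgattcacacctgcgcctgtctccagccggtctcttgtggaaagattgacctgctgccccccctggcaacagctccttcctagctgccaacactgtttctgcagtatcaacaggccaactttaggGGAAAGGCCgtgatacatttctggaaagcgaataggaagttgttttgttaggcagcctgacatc
Cd34: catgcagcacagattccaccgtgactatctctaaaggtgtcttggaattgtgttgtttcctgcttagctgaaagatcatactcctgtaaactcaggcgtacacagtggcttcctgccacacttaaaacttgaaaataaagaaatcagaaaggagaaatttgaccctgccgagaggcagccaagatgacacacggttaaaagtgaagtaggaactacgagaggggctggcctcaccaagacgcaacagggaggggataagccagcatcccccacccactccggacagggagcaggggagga
In Icam1 the pattern began 153 bases before the start, as GGAAATTCC, which reads the same on both strands, and again 84 bases before it as GGAAATACC on the opposite strand. In Sele it began 145 bases before the start as GGATATTCC and in Selp 14 bases before it, on the opposite strand, as GGAAAGGCC. Cd34 and Alcam had no match, and Ackr1 had 1. The pattern was in 4 of the 6 member regions and in 18.5% of 32851 start regions of the same length. TATAAA was found in Sele, beginning 49 bases before the start, in Icam1 after the start used, and in 13.6% of all regions. Distances are from the RefSeq start, which for Icam1 lies upstream of the gene start given earlier. A match is a description of letters and does not show binding. Of the 3 genes shown that hold the pattern, Icam1 and Selp had their highest mean in endocardial and their lowest in arterial libraries, and Sele had its highest mean in venous libraries.

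Scaled to exonic length, Icam2 and Cd34 were the highest members in all 3 populations, and Alcam and Selp were the lowest of those tested. In endocardial libraries the mean levels were 41.6 CPM per kb for Icam2, 27.7 for Cd34, 25.6 for Icam1, 14.1 for Sele, 7.76 for Vcam1, 2.53 for Alcam and 2.15 for Selp. The ranges of Icam2, Cd34 and Icam1 overlapped there, at 30.2 to 50.8, 23.4 to 33.2 and 19.8 to 30.7 CPM per kb. In arterial libraries Icam2 (59.7 to 96.3) and Cd34 (48.9 to 86.9) overlapped and were above Icam1 (9.56 to 14.9) and Sele (5.78 to 19.0), while Vcam1 (0.721 to 1.92) and Alcam (0.320 to 0.911) were below them. In venous libraries Cd34 (62.1 to 70.2) and Icam2 (69.8 to 86.6) overlapped again, as did Sele (13.8 to 27.3) and Icam1 (15.0 to 17.5), and Vcam1 stood between those and Alcam at 3.75 to 4.08 CPM per kb.

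**Figure D3:**
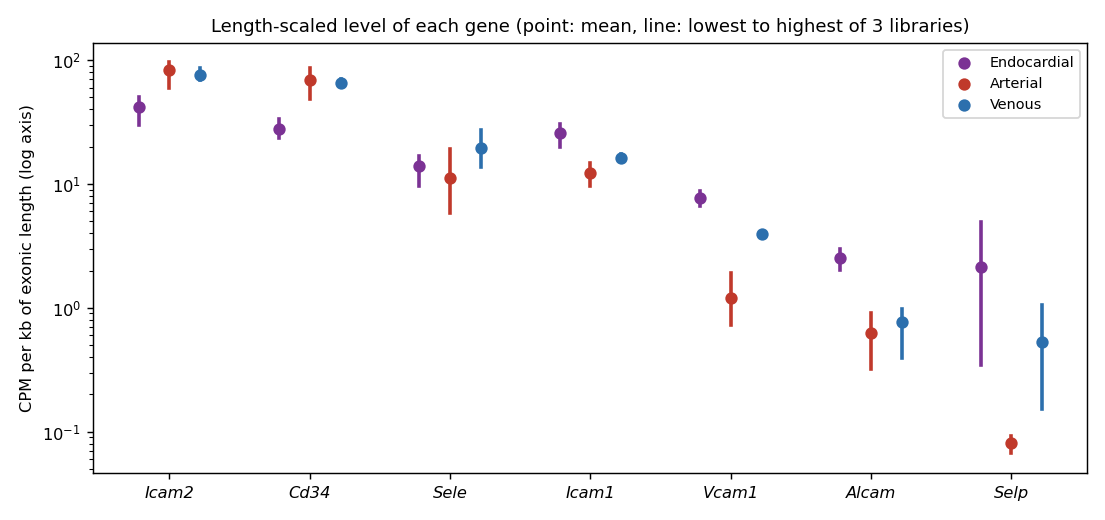
Mean level of the 7 tested genes in CPM per kb of exonic length, on a log axis, with a line from the lowest to the highest of 3 libraries in each population. Icam2 and Cd34 are at the top in every population, and the distance between them and Vcam1 is shortest in endocardial libraries.

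The members also varied within populations. Arterial replicate 1 had the highest Vcam1, Sele and Alcam and the lowest Icam2 and Cd34 of the arterial libraries. Over the 9 libraries Icam2 and Cd34 had nearly the same profile. After each gene's log2 CPM was centred on its mean, they differed by a root mean square of 0.19. The next closest pair, Icam1 and Alcam, was at 0.69, and Selp and Cd34 were farthest apart at 2.25. By the same measure among 6623 expressed genes, Icam2 was most like the actin regulator gene Wdr1 (0.09), the semaphorin gene Sema6d (0.09) and the VE-cadherin gene Cdh5 (0.11). Cd34 was most like Lrrk2 (0.13), the phosphatase gene Ptprb, which encodes VE-PTP (0.13), and Kank3 (0.14). Icam1 was most like Fnbp1 (0.14), Smtnl2 (0.15) and Zfp462 (0.15). Nearest to Vcam1 were the RNA-binding protein gene Celf2 (0.31), Nr2f2, a transcription factor gene of veins (0.31), and the growth factor gene Igf1 (0.35). Nr2f2 averaged 123 CPM in endocardial, 19.5 in arterial and 54.8 in venous libraries. Alcam was nearest to the cathepsin gene Ctsl (0.31), the endothelin gene Edn1 (0.35) and Ppm1l (0.35). Sele was nearest to the protease inhibitor gene Serpinb1a (0.24), and Selp had the loosest nearest match of the 7, Mmp2 (0.95). These are descriptions over 9 libraries in 3 populations and carry no test.

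A list of 99 other genes of leukocyte adhesion and recruitment was read in the same fit, and 90 were tested. Between endocardial and arterial libraries 15 were higher, 16 lower and 59 not called, with a median log2 fold change of -0.18. Between endocardial and venous libraries 7 were higher, 12 lower and 71 not called (median -0.01). Between arterial and venous libraries 2 were higher, 1 lower and 87 not called (median 0.02). Over all genes tested, 5.75%, 4.44% and 0.31% were called higher in these comparisons and 5.92%, 5.81% and 0.76% lower. The medians of all genes were -0.01, 0.10 and 0.03. Pecam1 and Emcn are in these counts although their products were used for the sorts, so they are not read as results.

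Of 17 junction and transmigration genes tested, 6 were lower, 1 higher and 10 not called in endocardial against arterial libraries, where 5.92% of all genes were called lower. Against venous libraries 5 were lower and 12 not called, where 5.81% of all genes were called lower. The list's median log2 fold changes were -0.20 and -0.08. Cd44, a hyaluronan receptor that can also bind selectins, had 33.3 ± 3.93 CPM in endocardial, 145 ± 4.19 in arterial and 58.0 ± 2.72 in venous libraries. It was called in all 3 comparisons, at log2 -2.12 ± 0.18 SE (adjusted p = 3.79e-07) against arterial and -0.80 (0.00577) against venous libraries, and at 1.32 (0.000552) between arterial and venous ones. Jam2, a junctional ligand of integrin alpha 4 beta 1, had 114 ± 12.8, 239 ± 33.3 and 261 ± 15.5 CPM (adjusted p = 0.000236 and 0.000118 for endocardial against arterial and venous libraries). Esam, a junction protein in neutrophil passage, had 117 ± 19.4, 257 ± 43.7 and 210 ± 19.7 CPM (adjusted p = 0.000309 and 0.00486). The adhesion gene Nectin2 was the higher one, at 82.7 ± 14.2 CPM in endocardial and 40.9 ± 3.48 CPM in arterial libraries (adjusted p = 0.00307). Mcam was lower than in arterial libraries (log2 -0.90, adjusted p = 0.00118). Cdh5 was at 917 ± 252, 1640 ± 303 and 1560 ± 271 CPM (adjusted p = 0.0166 and 0.0322), and its calls ended without arterial replicate 2 (0.11) or 3 (0.106) against arterial libraries. Against venous libraries they ended without endocardial replicate 1 (0.0588) or 2 (0.0634), arterial replicate 3 (0.0675) or venous replicate 2 (0.149) or 3 (0.0949).

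Of 10 tested genes for sialomucins and other surface proteins of the CD34 kind, 4 were higher and 2 lower in endocardial than in arterial libraries. Over all genes 5.75% were called higher and 5.92% lower. The list's median log2 fold change was -0.44, and Emcn, used in the sorts, was among the higher ones. The lower ones were Mcam (log2 -0.90) and Cd200 (log2 -0.76, edgeR adjusted p = 0.0367). Glg1, which encodes the E-selectin ligand ESL-1, had 372 ± 98.2 CPM in endocardial, 198 ± 36.2 in arterial and 244 ± 44.0 in venous libraries (edgeR adjusted p = 0.00802 and 0.0851). Cd164 (adjusted p = 0.0227) and Thy1 (0.0348) were also higher than in arterial libraries, and each lost its call without 1 of several libraries, at adjusted p of up to 0.106 for Cd164 and 0.205 for Thy1.

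Chemokine genes and atypical receptors included several that were higher in endocardium. Of 13 chemokine and cytokine genes tested, 5 were higher and 1 lower in endocardial than in arterial libraries, and 2 were higher than in venous ones. Over all genes tested, 5.75% were called higher and 5.92% lower than in arterial libraries, and 4.44% higher than in venous ones. The lower one was Cxcl12, a chemokine gene of arterial endothelium, at 10.3 ± 2.46 CPM in endocardial, 245 ± 100 in arterial and 22.8 ± 10.4 in venous libraries. Ccl2, a monocyte chemokine gene, had 24.3 ± 2.92 CPM in endocardial, 0.774 ± 0.712 in arterial and 4.78 ± 1.25 in venous libraries (log2 4.95 against arterial, adjusted p = 0.000696). Against venous libraries Ccl2 passed at adjusted p = 0.0442 and lost the call with the replicate block (0.0783), at 0.0849 without endocardial replicate 1, 0.104 without 2 and 0.121 without 3, at 0.0779 without arterial replicate 2, and at 0.178, 0.154 and 0.153 without venous replicates 1, 2 and 3. Cxcl16, a membrane-bound chemokine gene, had 28.0 ± 12.7, 5.01 ± 1.71 and 11.3 ± 3.18 CPM (adjusted p = 0.000659 against arterial libraries). The alarmin gene Il33 had 11.9 ± 4.06, 0.411 ± 0.434 and 1.07 ± 1.12 CPM (adjusted p = 0.011 against arterial libraries). Ccl7 averaged 4.45 CPM and Ccl21a 43.2 CPM in endocardial libraries and had no count in arterial ones. Their highest venous values, 0.512 and 0.563 CPM, were under the cutoff of the count filter, 0.628 CPM. Both were thus tested only because they were higher in endocardium, and both are among the 5. Ackr4, a scavenger of the chemokines CCL19 and CCL21, had 56.9 ± 9.47 CPM in endocardial, 1.41 ± 1.31 in arterial and 2.19 ± 0.466 in venous libraries (edgeR adjusted p = 0.000243 and 0.00061). Of the 5 atypical receptor genes tested, 2 were higher and 1 lower in endocardial than in arterial libraries, and 2 were higher than in venous ones. Ackr3 was the other higher one, at 209 ± 33.4, 19.7 ± 2.63 and 21.4 ± 1.68 CPM. Ackr2, a scavenger of inflammatory chemokines, was the lower one, at 8.06 ± 4.41, 25.1 ± 12.1 and 19.8 ± 6.85 CPM (adjusted p = 0.0323 against arterial libraries). That call ended without endocardial replicate 1 (0.0905) or 3 (0.144), without arterial replicate 2 (0.107) or 3 (0.141), and with these populations alone (0.0558). The 7 lymphatic markers summed to 851 to 973 CPM in endocardial, 89.9 to 114 CPM in arterial and 128 to 209 CPM in venous libraries, with Ccl21a, itself on both lists, at 0 in arterial ones. Of the 7, 5 were called higher in endocardial than in arterial and in venous libraries, and Flt4 and Pdpn were not called. The transcription factor gene Prox1 averaged 241 CPM in endocardial, 7.30 in arterial and 18.3 in venous libraries, and Lyve1 averaged 240, 3.10 and 8.92 CPM. Flt4 had 86.4 ± 30.3, 86.6 ± 20.5 and 118 ± 50.9 CPM in the same order. Pdpn was at 0.458 to 4.11 CPM in endocardial libraries. No list member was at 0 in endocardial libraries, and the part of lymphatic cells in these levels was not tested.

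**Figure D4:**
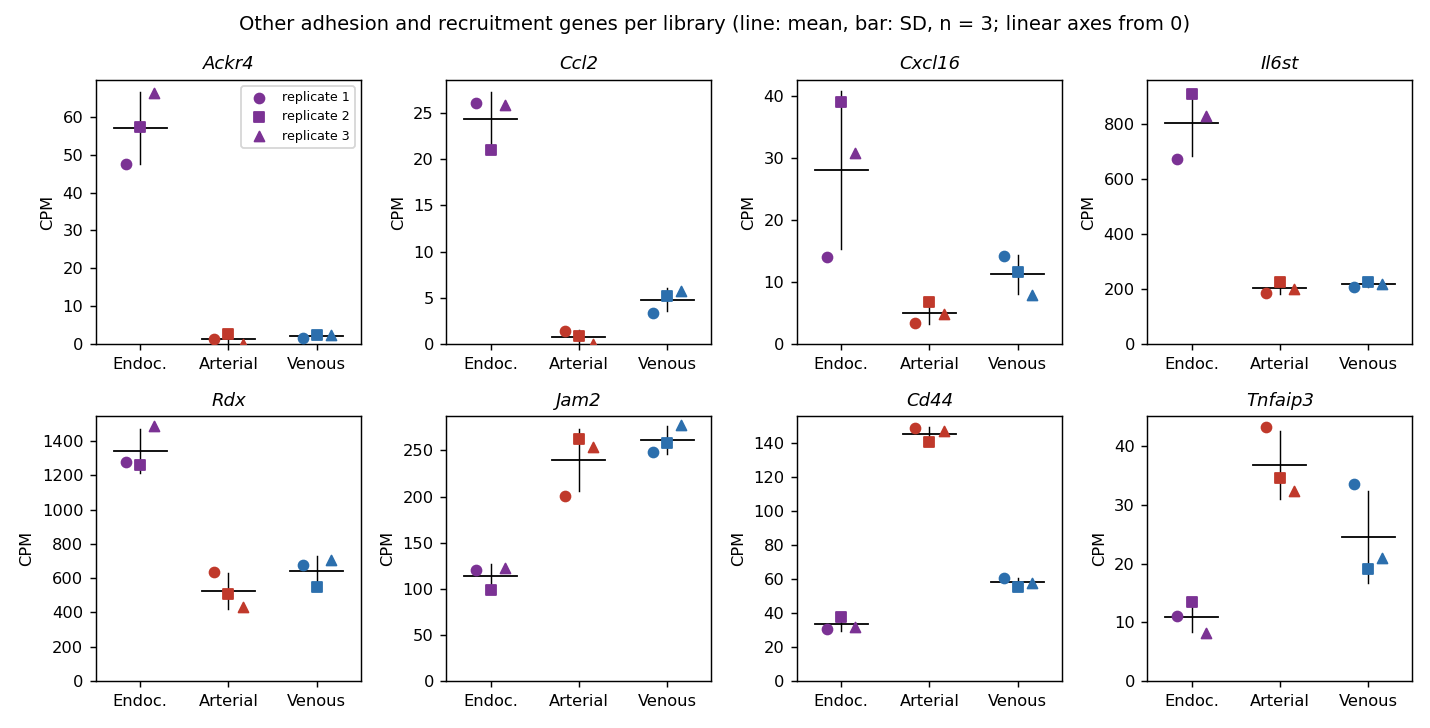
Level in CPM (linear axis from 0) of 8 other adhesion and recruitment genes in every library, with the mean and SD of 3 libraries per population. The means of Ackr4, Ccl2, Cxcl16, Il6st and Rdx are highest in endocardial libraries, where endocardial replicate 1 of Cxcl16 (14.1 CPM) reaches the venous range, and those of Jam2, Cd44 and Tnfaip3 are lowest there.

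The cytokine receptor and NF-kappaB genes, whose products drive Icam1, Vcam1 and Sele in inflamed adult vessels, were called at about the share of all genes in the endocardial comparisons. Of 27 tested, 1 was higher and 3 lower in endocardial than in arterial libraries, 1 was higher and 2 lower than in venous ones, and none was called between arterial and venous libraries, where 11.7%, 10.2% and 1.07% of all genes were called. In that comparison 4 of the 27 had an unadjusted p under 0.05 and DESeq2 called 0. The subunit genes Nfkb1 and Rela were not called between endocardial and arterial libraries, at 82.1 ± 17.1 against 96.5 ± 18.7 CPM and at 18.1 ± 3.86 against 19.1 ± 8.95 CPM (adjusted p = 0.658 and 0.958). Tnfaip3, which encodes the NF-kappaB inhibitor A20, had 10.9 ± 2.60 CPM in endocardial, 36.7 ± 5.83 in arterial and 24.6 ± 7.83 in venous libraries, with an adjusted p of 0.000685 against arterial ones. Against venous libraries its call (0.0172) ended without endocardial replicate 3 (0.0698) or venous replicate 1 (0.134). The higher gene was Il6st, the shared signalling subunit of IL-6 family receptors, at 803 ± 120, 204 ± 19.8 and 217 ± 8.64 CPM (adjusted p = 2.43e-07 and 6.64e-07). Tnfrsf1a, the main TNF receptor gene, had 65.3 ± 19.7, 108 ± 2.48 and 97.6 ± 21.6 CPM and was not called (adjusted p = 0.0534 and 0.143).

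Partners of the cytoplasmic tails of ICAM-1 and VCAM-1 moved in both directions. Of 13 tested, 2 were higher and 4 lower in endocardial than in arterial libraries, and 1 was higher and 5 lower than in venous ones. Over all genes tested, 5.75% and 4.44% were called higher in these comparisons, and 5.92% and 5.81% lower. Of the ERM proteins that link these tails to actin, Rdx (radixin) was higher in endocardium, at 1340 ± 126, 525 ± 105 and 643 ± 85.7 CPM (adjusted p = 2.72e-05 and 0.000408). Ezr (ezrin) was lower, at 14.6 ± 4.31, 42.3 ± 14.4 and 31.1 ± 3.77 CPM (adjusted p = 0.00207 and 0.026). Its call against venous libraries ended without endocardial replicate 2 (0.0986) or venous replicate 3 (0.108). Msn (moesin) was not called, at 838 ± 72.1, 1000 ± 89.3 and 1100 ± 18.7 CPM. Arhgef26, an exchange factor for RhoG that acts with ICAM-1, had 11.6 ± 1.59, 35.4 ± 0.551 and 28.7 ± 1.12 CPM (adjusted p = 0.000214 and 0.00172).

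RNA of leukocyte markers was low in all libraries. Of 16 leukocyte markers, 10 were detected in endocardial libraries, where Tyrobp, Fcer1g, C1qa, Cd52 and Cd3e were among those at 0, and 15 in arterial and in venous ones. The list holds Ptprc, which encodes CD45, used in the gates. Of the 7 markers tested, Laptm5 was the only one called. It was lower in endocardial than in arterial libraries, at 1.01 ± 0.665 against 8.86 ± 0.985 CPM (edgeR adjusted p = 0.0104), where 5.92% of all genes were called lower. The 16 markers summed to 9.84 to 19.4 CPM in endocardial, 14.4 to 21.3 CPM in arterial and 8.71 to 10.1 CPM in venous libraries. None of the 6 tested genes for integrin subunits that bind the members was called in any comparison. By edgeR, 0, 2 and 1 of them had an unadjusted p under 0.05 in the endocardial to arterial, endocardial to venous and arterial to venous comparisons, and DESeq2 called 0, 1 and 0. The beta 2 integrin gene Itgb2, partner of ICAM-1 on leukocytes, averaged 1.94 CPM in endocardial, 0.532 in arterial and 0.578 in venous libraries.

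**Figure D5:**
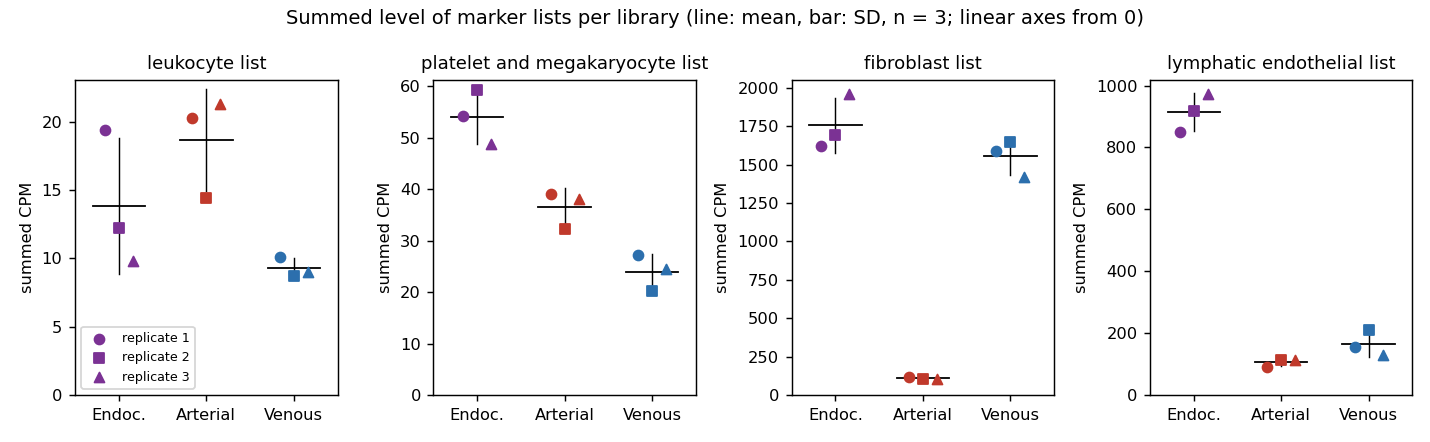
Summed CPM (linear axis from 0) of marker lists in each library, with the mean and SD of 3 libraries per population. The leukocyte list stays below 22 CPM in every library, the platelet list is highest in endocardial libraries, and the fibroblast list is at 103 to 119 CPM in arterial libraries, far below the other populations.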

How the data were processed

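Polyadenylated RNA of sorted cells was amplified from 1 ng and sequenced as single reads, per the labels' protocols, which name both an Ovation and a New England Biolabs kit. The authors deposited RSEM expected counts per Ensembl gene. The submitters' processing notes name CASAVA 1.8.2, cutadapt 1.3, RSEM 1.2.3 and GRCm38; for the aligner and strand setting, no source used here gives a value. Overlapping genes on opposite strands therefore cannot be told apart. Besides the overlaps of Selp and Cd34, exons of Icam1 share 511 bases with Gm47079 and those of Vcam1 61 with Gm43109. Neither of these predicted genes has a row of counts. Deposited expected counts were rounded, filtered (edgeR filterByExpr, minimum count 10, leaving 17103 of 41214 genes), scaled by TMM and fitted in 1 robust quasi-likelihood model over 9 libraries (edgeR 4.0.16, R 4.3.3), with Benjamini-Hochberg adjustment at 0.05. DESeq2 1.42.0 was an alternative. The fit was tested on simulated counts for endocardial against arterial, endocardial against venous and arterial against venous libraries. Of 100 genes changed 2-fold it recovered 14, 16 and 20, and of 100 changed 4-fold 75, 74 and 77. False calls numbered 4, 8 and 5. A gene that was not called can therefore still differ by 2-fold or more. The simulation changed far fewer genes than the 1996 and 1753 called in the endocardial comparisons. Its recovered shares may therefore not carry over to those comparisons. Gene positions are GRCm38 (GENCODE M21).

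The labels give each replicate number as a batch, so same-numbered libraries are paired by label. Deviations of same-numbered libraries correlated at -0.0902 to 0.165, over 0.1 in 3 of 9 pairs. The fit reported has no replicate block. Alternatives were other size factors, no filter, the block, each pair of populations alone, DESeq2 and leaving out each library. Members and lists were chosen with earlier results of these data known. Other genes are named as the up to 4 with the smallest adjusted p per list and comparison plus any called against their list's median. A few (Msn, Nfkb1, Rela, Tnfrsf1a, Itgb2, Ccl7, Il33, Cd200) were named after their values were seen. Likeness was taken among genes with mean log2 CPM of at least 4, with a prior count of 2.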

Additional observations from a re-analysis of the deposited data

How the results depend on the processing

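Under 14 alternatives, leaving out 1 library at a time gave 1507 to 2251 called genes between endocardial and arterial libraries, 1130 to 1871 between endocardial and venous and 120 to 225 between arterial and venous libraries. The members called ranged over 5 to 6, 1 to 4 and 1 to 2, and the other adhesion genes called over 22 to 32, 15 to 20 and 2 to 3. Between arterial and venous libraries DESeq2 called 369 genes and 6 other adhesion genes, and no filter on low counts gave 439 genes, 2 members and 6 other adhesion genes. With the replicate block 2312, 2097 and 225 genes and 6, 5 and 1 members and 33, 25 and 4 other adhesion genes were called in the 3 comparisons. The block changed the calls of Icam1 and Ccl2 between endocardial and venous libraries. It changed no other call of the members or of the called adhesion genes named by the rule above. Uncalled arterial to venous differences turned sign without arterial replicate 2 for Icam2 (log2 -0.02 to 0.33 with 1 library left out) and Cd34 (-0.17 to 0.28), and without arterial replicate 3 for Alcam (-0.64 to 0.03). Cxcl12 lost its arterial to venous call without endocardial replicate 1 (adjusted p = 0.0572), venous replicate 2 (0.0713) or 3 (0.0575), and with these populations alone (0.0577). Of 630 values for 45 called results of other genes named by the rule above, 579 kept their call and 51 lost it, with none reversed. That rule favours small adjusted p, and called genes outside it were not followed. The cause was not tested. Ackr1, with 0 to 14 counts a library, could not be tested at this depth.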
